A study of Mus musculus with 18 samples.

Results

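WDR82 was depleted by siRNA in mouse embryonic stem cells that carried a pool of DNA inserts at 1 genomic place, and the RNA of each insert was compared with that in cells given a non-targeting siRNA (siNT). The comparison used the 3 siWDR82 and 3 siNT cultures, each with an RNA and a genomic DNA (gDNA) library, which makes 12 of the 18 libraries of the series. Of 16461 inserts listed, 15343 had a mean of at least 20 gDNA reads over these 6 cultures and were analysed, with no minimum of RNA reads; 1118 were left out. Unspliced reads and the reads of any listed spliced form were added to give the RNA of each insert. A spliced form was listed for 2219 of the 15343 inserts.

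All cultures were of the same female CAST/129 hybrid line, grown with LIF, a MEK inhibitor and a GSK3 inhibitor. On the 129 allele of Oct4 the line carries TagBFP2 at the site written Oct4C, the insert library at Oct4ua157 and the red fluorescent reporter mKate2 at Oct4ua172. Controls and depleted cells therefore share every allele, and the labels set them apart by the siRNA and, in 2 cultures, by its dose. The dose was 30 nM in the 3 siNT cultures and in siWDR82 culture 1. The labels of siWDR82 cultures 2 and 3 give 31 and 32 nM, although the protocol gives 30 nM throughout. The assay amplifies 1 locus, so the loss of Wdr82 RNA or protein (gene on mm10 chromosome 9, 106170925 to 106191706) was not analysed here. The replicates are described as biological, with no statement of separate thawing or transfection. Each p-value therefore sets a difference against the spread between these cultures, which may be partly technical. The 2 groups were the same pool of cells under 1 depletion, with no second siRNA against WDR82 and no rescue used here.

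WDR82 is a WD40-repeat protein that binds the phosphorylated tail of RNA polymerase II. With the zinc finger protein ZC3H4 it forms Restrictor, which ends transcription of many short noncoding RNAs, among them upstream antisense RNAs (uaRNAs) that start at gene promoters and run away from the gene. It is also a subunit of the SET1 histone H3K4 methyltransferase complexes and of the PNUTS-PP1 phosphatase complex, so its loss need not act through Restrictor alone. Splicing and the signals that start it are known to favour productive elongation, and early polyadenylation signals to end it.

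The inserts lie in the uaRNA of Oct4, the product of Pou5f1, a transcription factor that keeps embryonic stem cells pluripotent. Pou5f1 lies on mm10 chromosome 17 from 35506032 to 35510777, and its uaRNA is made from the same promoter region in the opposite direction. The 250 bases before the RefSeq start of Pou5f1 are shown because the uaRNA that holds the inserts is made from this promoter region. Start sites of insert RNA were not analysed here. The bases are GRCm38.p6, plus strand, chr17:35505782-35506031, with a GC box in capitals.

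Pou5f1 upstream region: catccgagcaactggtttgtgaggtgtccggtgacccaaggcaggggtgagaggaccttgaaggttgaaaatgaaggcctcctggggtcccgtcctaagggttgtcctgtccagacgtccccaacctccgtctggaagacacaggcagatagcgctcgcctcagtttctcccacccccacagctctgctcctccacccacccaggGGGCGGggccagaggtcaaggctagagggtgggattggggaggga

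The capitals mark the 1 match to GGGCGG, searched on both strands, which begins 45 bases before the start. The same letters occur in 32.7% of the 32851 windows of this length before RefSeq starts. The inserts carry only a number, and no source gene or sequence was used for them here.

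RNA libraries held 44531036, 40977500 and 45455809 insert reads in siNT and 42381784, 39240968 and 40011783 with siWDR82. gDNA libraries were deeper in siNT, with 11510602, 11166865 and 11427429 insert reads against 8146606, 5129592 and 4584881. The median insert had 528 to 559 gDNA reads in a siNT culture and 216 to 385 in a siWDR82 culture. The level of an insert was taken as log2 of its RNA reads scaled to a common library total (CPM) plus 0.5, minus the same for gDNA, so that 0 is the average of the library. It is a mean over all cells with that insert, so fewer transcribing cells and less RNA per cell cannot be told apart. Insert by insert, the make-up of the gDNA pool showed no call between the groups: edgeR called 0 of 15343 inserts (0.0%), with 492 at an unadjusted p under 0.05, and DESeq2 called 1. The number of inserts that hold 50% of the gDNA reads was 2855 to 3087 in siNT and 2949 to 2993 with siWDR82, and these ranges overlap.

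With WDR82 depleted the inserts lay closer together. Relative to the pool, inserts of low RNA in siNT stood higher, the difference shrank group by group with increasing siNT level, and the inserts of highest RNA stood lower. Inserts were sorted into 10 equal groups of about 1534 by their level in each siNT culture in turn, and read against the siNT cultures that had not sorted them, so that noise in the sorting culture did not enter the change. In the lowest group, with a median siNT level of -3.08, siWDR82 cultures 1, 2 and 3 stood 1.13, 0.94 and 1.16 log2 units higher. The mean change was 1.08 ± 0.12 (SD, n = 3). A siNT culture set against the other siNT cultures in this group differed from them by at most 0.24 on average.

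From group to group the mean change then declined without a turn. It was 0.93 ± 0.082 in the second group, 0.69 ± 0.036 in the fourth and 0.37 ± 0.029 in the sixth. The eighth group, at a median siNT level of 0.13, stood at 0.02 ± 0.033, within the average siNT differences of up to 0.06. The ninth group was at -0.21 ± 0.024 and the highest, at a median siNT level of 1.40, at -0.47 ± 0.069. In the highest group a siNT culture differed from the others by at most 0.11 on average. The 3 siWDR82 cultures gave nearly the same curve. Summing the reads of a group in place of taking the median, which gives inserts without reads no special weight, gave 0.99 ± 0.098 in the lowest and -0.49 ± 0.092 in the highest group.

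**Figure D1:**
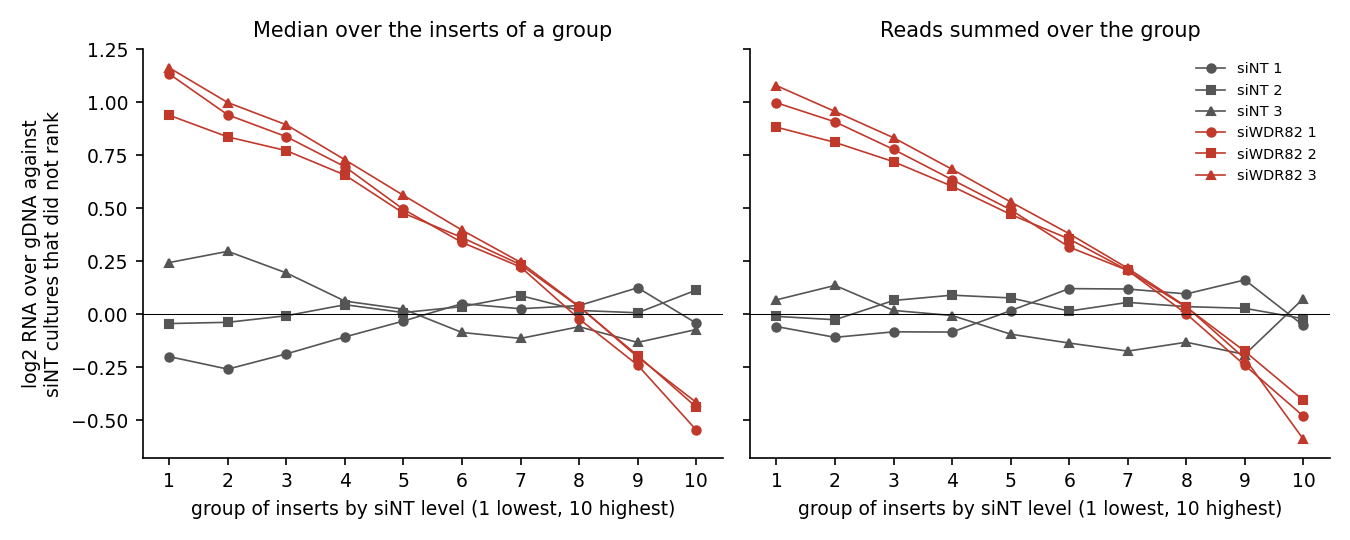
Log2 RNA over gDNA of 10 equal groups of inserts, sorted by siNT level, against siNT cultures that did not sort them, as the median over inserts (left) and from reads summed over the group (right). Each line is 1 culture. The siWDR82 lines run from 1.08 (mean) in group 1 to -0.47 in group 10 on the left, and cross the siNT lines near group 8.

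These changes are relative to all inserts. Insert reads per spike-in read, the one measure of total insert RNA, were 26.0, 39.7 and 37.6 in siNT and 97.7, 46.3 and 61.8 with siWDR82. The geometric mean was 1.93-fold higher and the groups did not overlap. siWDR82 culture 1 stood highest, and without it the difference of the means went from 34.1 to 19.6. Spike-in RNA was added before extraction and cell numbers were not used here, so more cells and more insert RNA per cell cannot be told apart. Scaled to spike-in reads, the highest group stood at 0.48 and the lowest at 2.03, so the lower value at the top holds only relative to the pool, while the difference between lowest and highest group, 1.55, does not depend on the scale.

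The same narrowing was visible in each culture without any sorting. The interquartile range of levels was 2.81, 2.49 and 2.36 in siNT and 1.76, 1.87 and 1.72 with siWDR82, 2.56 ± 0.23 against 1.78 ± 0.081 (n = 3). RNA was spread over more inserts: 50% of the RNA reads were held by 1437, 1454 and 1297 inserts in siNT and by 1811, 1802 and 1947 with siWDR82. The top 1% of inserts, in contrast, held 12.7%, 13.1% and 17.8% of RNA reads in siNT and 13.2%, 13.0% and 10.1% with siWDR82, and here the groups overlapped. An exact two-sided permutation test of 3 against 3 cultures cannot go below p = 0.1, which it gave for the interquartile range, for the inserts holding 50% of RNA reads and for the spike-in ratio (adjusted p = 0.115 over 15 quantities). For the top 1% the exact permutation p was 0.5 (adjusted 0.536).

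Insert by insert, the 3 siWDR82 cultures lay above all 3 siNT cultures for 3090 inserts (20.1%) and below all of them for 1051 (6.85%). In the lowest of 10 groups by mean siNT level 705 of 1535 inserts were apart and higher and 3 apart and lower. In the highest group 11 of 1535 were apart and higher and 520 apart and lower. Here the siNT cultures both sorted the inserts and entered the change, so these counts describe the pattern and do not test it.

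The change by level was present at every degree of representation in the pool. Inserts were split into 5 equal groups by mean gDNA reads, and in each the lowest of 5 siNT level groups was compared with the highest. The difference was 0.94 ± 0.17 for the least represented inserts (up to 164 mean gDNA reads) and 1.42 ± 0.071, 1.33 ± 0.13, 1.40 ± 0.11 and 1.45 ± 0.13 in the other 4 groups (n = 3 cultures each). The median SD of an insert between siNT cultures went over these groups from 1.45 to 0.41 and between siWDR82 cultures from 0.98 to 0.32, so the best represented inserts carry the least error. At the edge of the gDNA minimum, the 131 inserts with 20 to 25 mean reads had a median change of 0.12 and the 149 with 15 to 20, which were left out, of -0.055. The 1118 inserts left out gave 0.337% to 0.402% of insert RNA reads in siNT and 0.223% to 0.266% with siWDR82.

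Fewer inserts were silent after depletion. Inserts without any RNA read made up 7.36%, 7.08% and 5.61% of the 15343 in siNT and 3.00%, 3.04% and 3.12% with siWDR82, 6.68 ± 0.94% against 3.05 ± 0.061% (n = 3). Counting only inserts with at least 20 gDNA reads in the culture itself, 972, 854 and 616 lacked RNA in siNT and 317, 240 and 233 with siWDR82. This limit is stricter with siWDR82, whose gDNA libraries were shallower, so the second count also carries that difference in depth. The groups did not overlap in either count (exact permutation p = 0.1 each, the smallest possible; adjusted 0.115).

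Most silent inserts were not silent in every culture. All 3 siNT cultures lacked RNA for 275 inserts, which had a median of 191 gDNA reads over those cultures. Of these, 209 had RNA in at least 1 siWDR82 culture, 67 in all 3 and 66 in none, and 121 reached 100 or more RNA reads over the siWDR82 cultures. In the other direction, 116 inserts lacked RNA in all 3 siWDR82 cultures. Of these, 37 had RNA in 1 siNT culture, 12 in 2, 1 in all 3 and 66 in none. Picking inserts by zeros in 1 group favours RNA in the other, so these counts describe the pattern and do not test it. With a limit of 3 RNA reads over a group, 503 inserts were at or under it in siNT, 175 with siWDR82 and 119 in both. A spliced form was listed for 32 of the 503.

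The RNA libraries differed in a way that bears on these counts. Low RNA read numbers were not spread evenly but heaped, with a first heap at 83.9, 66.3 and 53.4 reads in siNT and at 28.8, 23.3 and 21.4 with siWDR82, and a second heap at 2.05 to 2.28 times the first. If the first heap is taken as 1 read step, the libraries held 530763, 618062 and 851232 steps in siNT and 1471590, 1684162 and 1869709 with siWDR82, although their read totals were alike. Reads without molecular identifiers are not independent molecules, and whether 1 step is 1 molecule was not tested. The interquartile range of levels was not computed at equal numbers of steps, so a share of the step difference in its narrowing was not tested. Within siNT this range, 2.81, 2.49 and 2.36, fell as the steps rose. With siWDR82, at 1.76, 1.87 and 1.72, it did not follow them.

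With all 6 libraries brought by calculation to the smallest number of steps, the share of inserts expected without RNA was 13.8%, 13.2% and 12.6% in siNT and 7.72%, 7.93% and 7.62% with siWDR82. With the second heap as the step it was 15.6%, 15.8% and 16.4% against 11.2%, 11.6% and 11.2%. The groups stayed apart on either footing, and the ratio of siWDR82 to siNT was 0.588 with the first and 0.712 with the second heap as step. These shares count inserts under 0.5 steps as without RNA, whereas the ratio of 0.46 from the reads counts inserts without a read. Before the libraries were brought to equal steps, 13.8%, 12.7% and 10.4% of inserts were under 0.5 first-heap steps in siNT. With siWDR82 it was 4.74%, 4.56% and 4.35%, a ratio of 0.372. The excess of silent inserts in siNT was thus smaller in proportion, but present, at equal numbers of steps. At the other end, inserts with more than 20.5 steps numbered 5926, 6497 and 7401 in siNT and 10499, 10860 and 11297 with siWDR82, a count that grows with the number of steps in the library.

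**Figure D2:**
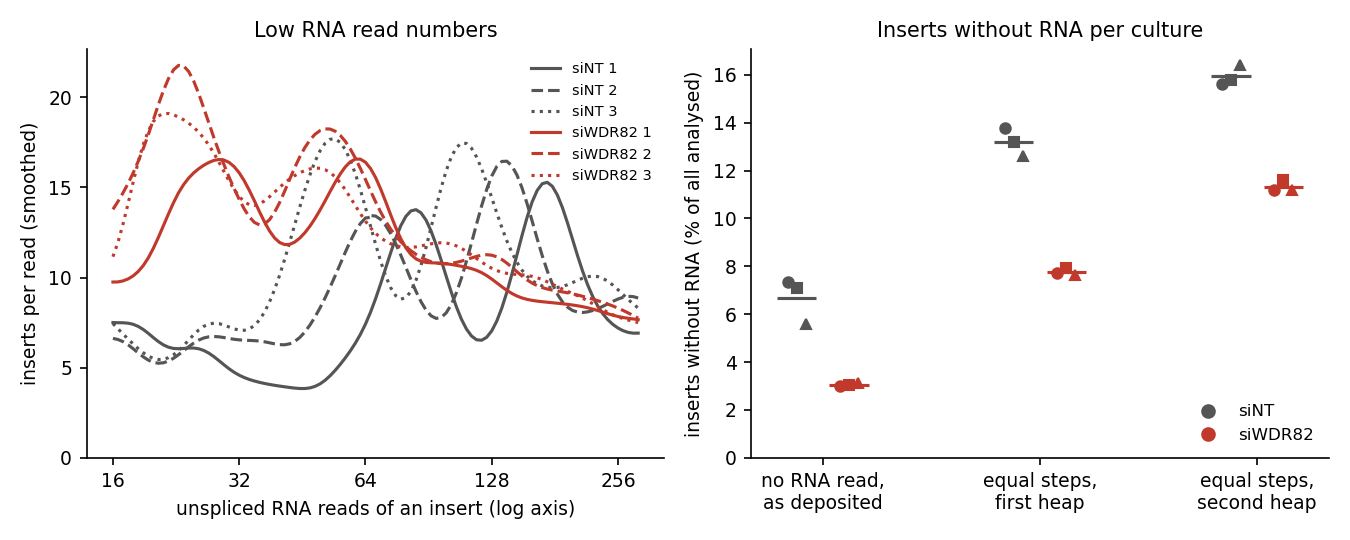
Left, smoothed number of inserts per read against the unspliced RNA reads of an insert (log axis) in the 6 RNA libraries, with heaps at 83.9, 66.3 and 53.4 reads in siNT and 28.8, 23.3 and 21.4 with siWDR82. Right, percent of the 15343 inserts without RNA in each culture, as deposited and at equal numbers of read steps; bars are means of 3 cultures, and all siWDR82 points lie below all siNT points.

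The change also followed the number an insert carries. Numbers are the only order the tables give, and neighbours by number were alike in siNT: the median level was above 0 in all ranges of 500 from 1 to 4000 in each culture, sank to -1.80 or lower in both ranges from 11001 to 12000, and was again above 0, at 0.58, 0.46 and 0.58 in the range 12001 to 12500. In 19 of 33 ranges (57.6%) the siWDR82 cultures were apart from the siNT cultures and higher, and in 1 (3.03%) apart and lower. The median change was above 0 in 27 of the 33. From reads summed over a range, which weigh abundant inserts most, 17 were apart and higher and 4 lower. With spike-in scaling 93.9% of ranges were apart and higher and 0.0% lower, so directions by range are also relative to the pool.

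Ranges split into blocks of unlike response. The 3850 inserts numbered 1 to 4000 had a median level of 0.40, 0.24 and 0.12 in siNT and 0.24, 0.29 and 0.24 with siWDR82. These values overlapped, with a mean change of 0.00 and an SD of 0.14 among siNT cultures. The 1421 inserts numbered 4001 to 5500 went from -0.20 ± 0.13 to 0.01 ± 0.018, a change of 0.21. A larger change began at 5501: the 3224 inserts from there to 9000 went from -1.61, -1.42 and -1.34 to -0.81, -0.79 and -0.70, a change of 0.69, and the 2671 from 9001 to 12000 from -1.96 ± 0.25 to -1.21 ± 0.065, a change of 0.75. No siWDR82 culture overlapped a siNT culture in either block. From summed reads the change was -0.16, -0.03, 0.41 and 0.45 in these 4 blocks, so the second differed in sign from its median. In the 5501 to 9000 block the share of inserts without RNA was 9.04% in siNT and 3.72% with siWDR82, and in the 1 to 4000 block 2.00% and 1.13%.

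The range 12001 to 12500, in which 80.1% of inserts have a spliced form listed, ran the other way. Its 468 inserts went from 0.58, 0.46 and 0.58 to 0.06, 0.06 and 0.11, a change of -0.46. Its 93 inserts without a spliced form went from -2.09 ± 0.054 to -1.38 ± 0.13, a change of 0.71, while its 375 with one changed by -0.61, from 0.93 ± 0.079 to 0.32 ± 0.063. The same split ran through nearly all numbers. Inserts with a spliced form changed less upward, or more downward, than those without in 31 of 33 ranges; the exceptions were 11501 to 12000 and 16001 to 16461, with 16 and 24 such inserts. Weighted by members, the difference within ranges was -0.66, with SDs of 0.016 and 0.035 among siWDR82 and siNT cultures.

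**Figure D3:**
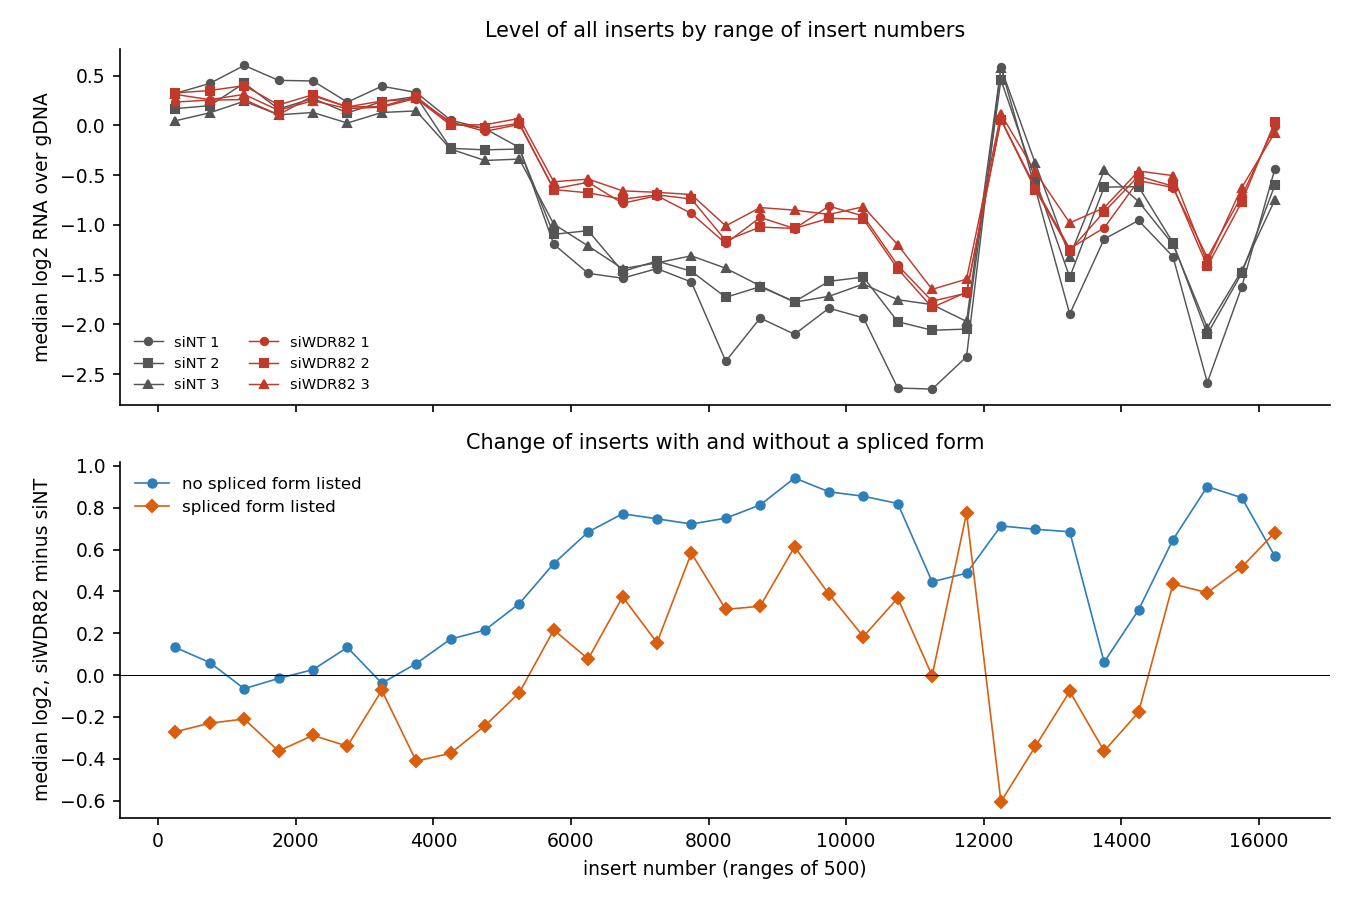
Top, median log2 RNA over gDNA of all analysed inserts in each range of 500 insert numbers, with 1 line per culture. Bottom, median change (siWDR82 minus siNT) in each range for inserts with and without a spliced form listed; inserts with one lie lower in 31 of 33 ranges, and the gap is widest, -1.32, at 12001 to 12500.

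Part of the difference between blocks ran along with siNT level. Over the 33 ranges, in inserts without a spliced form, the median siNT level and the change had a correlation of -0.83, a description over ranges that share the same 6 cultures. Within groups of siNT level the blocks came closer. Among inserts without a spliced form in the lowest of 5 siNT level groups, the change was 0.74 ± 0.14 for numbers 1 to 4000, 1.02 ± 0.064 for 4001 to 5500, 1.12 ± 0.12 for 5501 to 9000, 1.00 ± 0.050 for 9001 to 12000 and 1.06 ± 0.13 for 12501 and above (n = 3 each). It was lowest, at 0.65 ± 0.039, for 12001 to 12500, which held 34 such inserts on average. In the highest level group the blocks differed in sign: -0.29 ± 0.052 for numbers 1 to 4000 and -0.20 ± 0.050 for 4001 to 5500, but 0.13 ± 0.040 for 5501 to 9000 and 0.10 ± 0.052 for 9001 to 12000. All 3 siWDR82 cultures were below 0 in the first 2 of these blocks and above 0 in the other 2. Numbers 12501 and above lay between them at -0.045 ± 0.060, with cultures on both sides of 0. The highest level group has no upper limit, and held 1311.7 such inserts on average for 1 to 4000 and 135 for 9001 to 12000. Levels inside it were not matched between blocks, and the signs are relative to the pool. What sequences the blocks hold was not used here. Beyond the blocks, neighbours shared little: the change of inserts 1 number apart correlated with r = 0.14 over 14339 pairs, and with r = 0.03 once each range's median was subtracted.

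Inserts with a spliced form listed stood lower after depletion relative to the others. Their median level exceeded that of the others by 0.93, 0.98 and 1.04 in siNT and by 0.25, 0.30 and 0.36 with siWDR82, a change of -0.68 (exact permutation p = 0.1, the smallest possible; adjusted 0.115). With reads summed over the inserts, the 2080 inserts with 1 form went from 0.56, 0.55 and 0.58 to 0.08, 0.06 and 0.20, a change of -0.45. The 139 with 2 or more forms went from 0.34 ± 0.082 to -0.11 ± 0.11, also -0.45, and the 13124 without a form from -0.10 ± 0.005 to -0.02 ± 0.012. The gDNA share of inserts with 1 form was 11.5 ± 0.41% in siNT and 11.5 ± 0.14% with siWDR82.

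Summed over inserts and relative to the pool, spliced reads fell more than unspliced reads of inserts with a form. Such sums weigh abundant inserts most. For inserts with 1 form, the summed level of spliced reads went from -0.52, -0.69 and -0.53 to -1.49, -1.52 and -1.27, a change of -0.85. Their unspliced reads went from -0.36, -0.25 and -0.31 to -0.51, -0.52 and -0.44, a change of -0.18. Both sets of cultures were apart. Unspliced reads alone, taken as the median over these inserts, were at -1.13 ± 0.24 and -1.17 ± 0.073 and overlapped, where inserts without a form went from -0.99 ± 0.057 to -0.51 ± 0.027. The median of spliced reads over inserts with 1 form went from -2.87 ± 0.20 to -3.17 ± 0.071, with cultures apart. That change, -0.30, was smaller than the one from sums. For inserts with 2 or more forms the median of spliced reads changed by -0.13, and the cultures overlapped. Spliced reads were 47.0%, 42.2% and 46.1% of the RNA reads of inserts with a form in siNT and 33.7%, 33.3% and 36.0% with siWDR82 (exact permutation p = 0.1, adjusted 0.115). For single inserts the change of spliced over unspliced reads was not callable: edgeR called 0 of 1473 inserts with a mean of at least 20 reads of each form (0.0%), with 81 at an unadjusted p under 0.05, 51 of them lower. The median fitted log2 change was -0.35, and 60.2% of the 1473 were below 0.

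The spliced share was also followed within groups of inserts. Inserts with a form and at least 100 RNA reads in 1 siNT culture were grouped by their spliced percent in that culture and read in the others. Those spliced in 90% to 100% of reads, 419 on average, were at 95% in the other siNT cultures and at 94.1%, 93.9% and 93.7% with siWDR82. Those at 50% to 90% were at 72.2% and then 64.5%, 64.7% and 67.3%, and those at 10% to 50% at 27.4% and then 21.0%, 21.3% and 22.4%. Inserts under 10% were at 2.24% and then 2.37%, 2.03% and 2.19%. The 90% to 100% group lies near the ceiling of the measure, where a small step in percent is a larger step in the ratio of forms. Its level was 1.57, 1.70 and 2.11 in siNT and 0.88, 0.82 and 1.19 with siWDR82. The levels of the 50% to 90% group were 0.43, 0.56 and 0.83 against -0.07, -0.03 and 0.08, and the levels of the group under 10% were -0.51, -0.34 and -0.41 against -0.40, -0.38 and -0.27. The cultures were apart in the first 2 of these groups and overlapped in the last.

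Since highly spliced inserts also had the most RNA in siNT, their change was set against inserts of equal siNT level without a spliced form. The remaining difference was -0.23 ± 0.021 for inserts spliced under 10%, -0.49 ± 0.035 for 10% to 50%, -0.58 ± 0.11 for 50% to 90% and -0.77 ± 0.13 for 90% to 100% (n = 3). siNT cultures set against each other gave -0.06 to 0.06, -0.16 to 0.16, -0.28 to 0.35 and -0.55 to 0.78 in the same groups. siNT culture 3 stood apart here, with more RNA of highly spliced inserts than the other siNT cultures. In the 3 groups under 90% the siWDR82 values therefore lay outside the siNT differences on the low side. In the most spliced group siWDR82 culture 3, at -0.625, lay close to siNT culture 1, at -0.547. There siNT culture 3 stood as far to the other side, at 0.778, so that group is not set apart from the spread among siNT cultures.

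**Figure D4:**
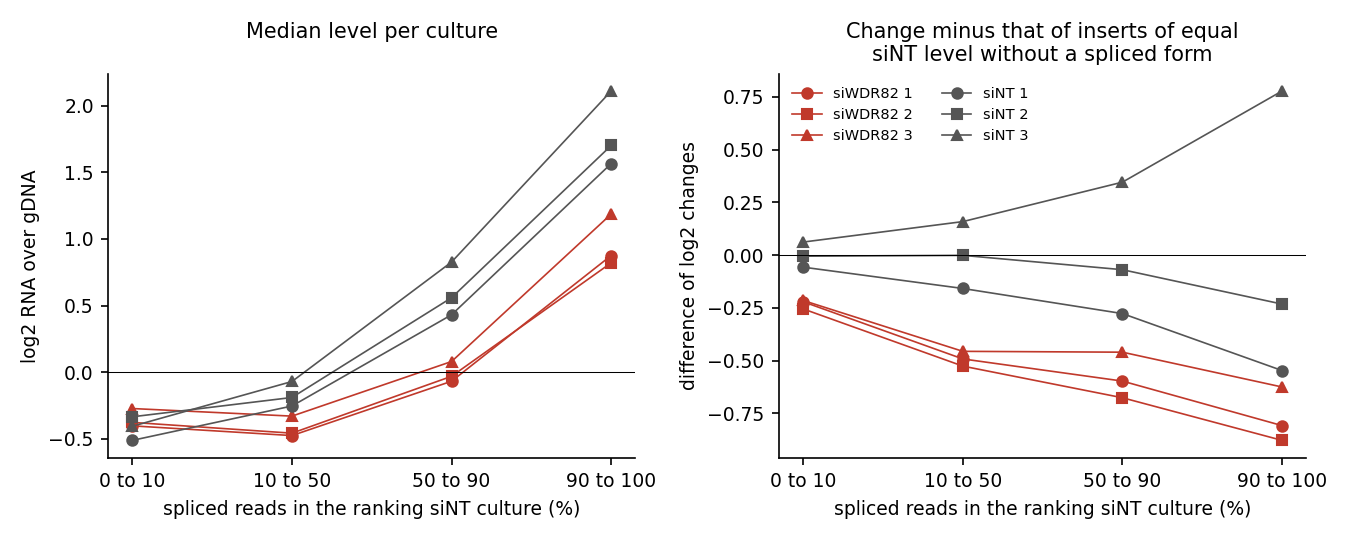
Inserts with a spliced form listed, grouped by the percent of spliced reads in 1 siNT culture. Left, median log2 RNA over gDNA in each culture that did not sort the inserts; right, the change minus that of inserts of equal siNT level without a spliced form. The siWDR82 lines run from -0.23 to -0.77 (means) on the right, while siNT culture 3 reaches 0.78 in the most spliced group.

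Calls for single inserts were few and moved with the model. Pairing the RNA and gDNA of each culture, edgeR's quasi-likelihood test at an adjusted p of 0.05 called 31 inserts higher (0.202%) and 19 lower (0.124%), with 2675 at an unadjusted p under 0.05. The split depended on the scale: 74 were higher and 7 lower with library totals, and 2198 higher and 2 lower with spike-in scaling. It also differed with gDNA left out of the fit and the scaling kept, at 4 higher and 38 lower. The scalings also moved the middle of all inserts: their median fitted log2 change was 0.43 with library totals and 1.39 with spike-in scaling, in place of 0.17. Without the pairing 40 were higher and 2 lower, and 22 inserts were called both ways. DESeq2 called 832 higher and 845 lower, limma on log ratios 0, and edgeR with RNA reads divided by the read step 307 higher and 321 lower, 45 of them among the 50. Leaving out siWDR82 culture 1, 2 or 3 left 0 calls each time, and leaving out siNT culture 1, 2 or 3 gave 121, 33 and 131. Changes were also put into simulated counts of 15343 inserts, only in inserts with a scaled mean of at least 50 RNA reads. The simulation used 1 dispersion for all inserts and no read steps. There the paired model found 17.9% of 67 at 4-fold, 59.1% of 66 at 8-fold and 0.0% of 67 at 2-fold. In that setting moderate changes of single inserts mostly escaped it, and recovery in the real counts was not tested.

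The called inserts differed in siNT level, whose median over all 15343 was -0.95. The siNT cultures enter the fitted change, so these levels describe the calls and do not test a link with level. The 31 that rose had siNT levels from -7.24 to -1.03, with a median of -5.92, and a median fitted log2 change of 6.42; 11 of them had 3 or fewer RNA reads in siNT, a state of 503 of all 15343. A spliced form was listed for 1 of the 31, against 2219 of all 15343. By number, 16 lay from 5501 to 12000, which holds 5895 of all inserts, and 11 above 12500, which holds 3709. The 19 that fell had siNT levels from 0.25 to 4.15, with a median of 2.11, and changes from -2.18 to -1.35. A spliced form was listed for 8 of them. By number, 14 lay from 1 to 5500, which holds 5271 of all inserts, and 4 from 12001 to 12500, which holds 468. The gDNA moved too: its fitted change was below 0 in 23 of the 31 that rose (median -0.28) and in 4 of the 19 that fell (median 0.27), against 7933 of all 15343. From RNA reads alone, with gDNA left out of the fit, edgeR called 4 inserts higher and 38 lower, 8 of them among the 50.

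The rise of lowest p was sequence_11860, an insert without a spliced form. It had 1 RNA read in each siNT culture and 361, 507 and 430 with siWDR82, on 1104, 531 and 448 gDNA reads in siNT and 304, 354 and 326 with siWDR82. No siWDR82 culture overlapped a siNT culture. Its pooled RNA over gDNA was 516-fold higher, and edgeR gave an adjusted p of 0.0226. The exact 95% Poisson interval for the 3 siNT reads was 177 to 2504. It takes these reads as independent counts, which reads without molecular identifiers are not, so it does not bound the fold. A value of 1 read lies far under the read step of 53.4 to 83.9 in siNT, whereas the siWDR82 values are 12.5, 21.8 and 20.1 steps. The siZC3H4 cultures of the series had 106, 332 and 389 RNA reads on 532, 528 and 205 gDNA reads.

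Among inserts with a mean of at least 20 siNT RNA reads, the rise of lowest p was sequence_10809, without a spliced form. Its RNA reads were 747, 541 and 381 in siNT and 5140, 2063 and 3657 with siWDR82, on 1953, 2026 and 1357 and then 1597, 697 and 739 gDNA reads. Its level went from -3.30, -3.73 and -3.75 to -0.69, -1.36 and -0.82, with a fitted log2 change of 2.43 (SE 0.33, edgeR adjusted p = 0.0454). Every siWDR82 culture was higher than every siNT culture.

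The fall of lowest p without a spliced form was sequence_03812. Its RNA reads were 26190, 24004 and 21189 in siNT and 10407, 6278 and 5813 with siWDR82, on 987, 824 and 471 and then 698, 364 and 325 gDNA reads. Its level went from 2.77, 2.98 and 3.48 to 1.51, 1.17 and 1.03, all siWDR82 cultures lower, with a fitted log2 change of -2.10 (SE 0.285, edgeR adjusted p = 0.0454).

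The fall of lowest p with a spliced form was sequence_12079, which lies in the splice-rich range. Its level was nearly equal in the siNT cultures, at 2.05, 2.09 and 2.09, and was 0.24, 0.27 and 0.01 with siWDR82. Of its RNA reads 96.2% were spliced in siNT and 96.3% with siWDR82, so its spliced share was nearly equal in both groups. The fitted log2 change was -2.17 (SE 0.23, edgeR adjusted p = 0.0226). For all 4 inserts the call was lost when any 1 siWDR82 culture was left out, with edgeR adjusted p from 0.163 to 0.204, while the direction held. Leaving out siNT culture 2 also ended those of sequence_10809 and sequence_03812 (edgeR adjusted p = 0.062 and 0.0568). Both calls were also lost without the pairing (edgeR adjusted p = 0.0576 and 0.0531). RNA reads alone lost those of sequence_11860 and sequence_10809 (edgeR adjusted p = 0.0534 and 0.0605), and unspliced reads that of sequence_12079 (edgeR adjusted p = 0.0596). Among inserts with at least 20 siNT RNA reads, sequence_10809, sequence_03812 and sequence_12079 missed the threshold at edgeR adjusted p of 0.0702, 0.0702 and 0.0619. limma lost all 4, with adjusted p from 0.0955 to 0.144. The direction was the same in each of these. With spike-in scaling the falls of sequence_03812 and sequence_12079 were -0.88 and -0.94 (edgeR adjusted p = 0.213 and 0.136).

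**Figure D5:**
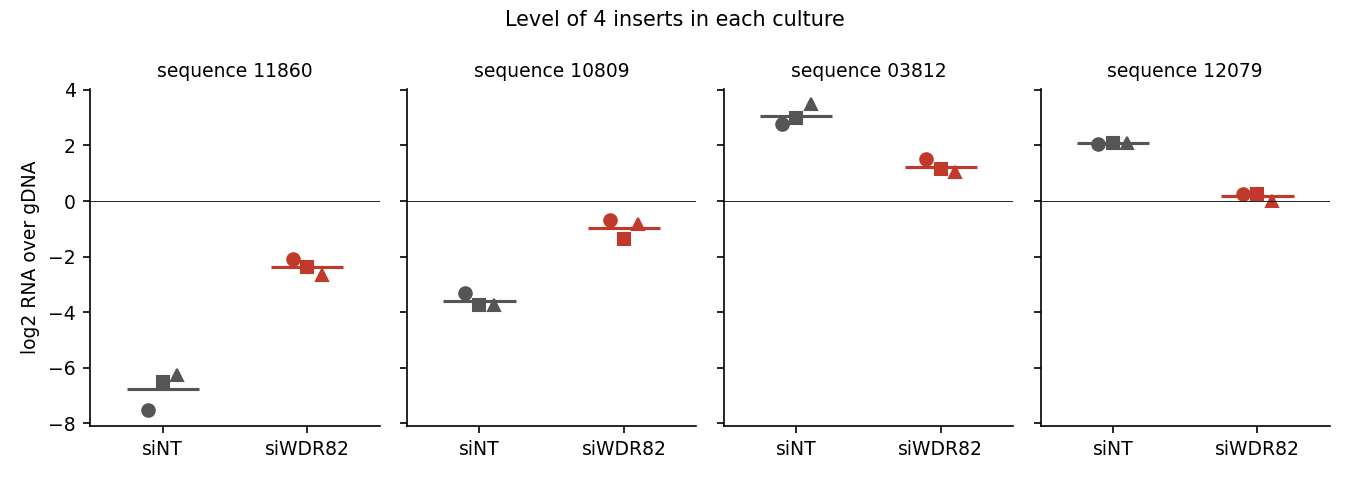
Log2 RNA over gDNA of 4 called inserts in each of the 3 siNT and 3 siWDR82 cultures; bars are means. The siNT and siWDR82 points do not overlap in any of the 4, and sequence 11860 rests on 1 RNA read per siNT culture.

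Inserts outside the calls show the error of a single insert. The uncalled insert with the most siNT RNA reads, sequence_00580, had 272536, 378308 and 1716399 RNA reads in siNT and 926796, 789337 and 157066 with siWDR82, at levels of 4.98, 5.29 and 7.23 and then 6.65, 6.45 and 3.96. The cultures overlapped and spread over more than 2 log2 units in both groups. At the silent end, 66 inserts had no RNA read in any of the 6 RNA libraries, with a median of 234 gDNA reads over the 6 gDNA libraries. The best represented, sequence_08517, had 481 gDNA reads in siNT and 82 with siWDR82; siZC3H4 cultures gave it 48, 51 and 0 RNA reads.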

How the data were processed

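Insert RNA and gDNA of 6 cultures were sequenced as amplicons. Per the labels' protocols, RNA was reverse transcribed from a primer in mKate2 221 nt beyond the variable region, with spike-in RNA added before extraction. The authors deposited raw read counts per insert, spliced form and spike-in. The submitters' processing notes name build mm10 and, without their roles, STAR, SAMtools, Bowtie2 2.3.4.3 and cutadapt 1.14. The row for unassigned reads held 0 reads.

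Here, counts were fitted with edgeR 4.0.16 (R 4.3.3; quasi-likelihood, TMM within RNA and within gDNA, culture as a block, Benjamini-Hochberg threshold 0.05). RNA and gDNA of a culture deviated together from their group means (r = 0.29 to 0.47, each RNA library best with its own gDNA), so they were paired. Replicates were no duplicates (chi-square per degree of freedom at least 32.4). Per-culture quantities were compared by exact permutation (scipy 1.17.1). Read heaps were found in unspliced reads from 8 to 400 with a log2 kernel of 0.16 and a prominence of at least 10% of the heap's height. Scripts were tested on simulated counts. Alternatives covered scaling, DESeq2 1.42.0, limma 3.58.1, count minimums, forms read, grouping, blocks, RNA without gDNA, libraries fitted and each culture left out.

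Named inserts were taken by rule: past the threshold, at least 20 mean gDNA reads in each group, and cultures not overlapping; then the rise of lowest p, the same with a mean of at least 20 siNT RNA reads, the falls of lowest p without and with a spliced form, the uncalled insert of most siNT RNA and the silent insert of most gDNA. The members, lists and groups were chosen with earlier results of these data known. The groups by spliced percent, the blocks of numbers, the read steps and the summed reads were chosen after seeing the data.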

Additional observations from a re-analysis of the deposited data

How the results depend on the processing

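Of the quantities per culture, the interquartile range, the inserts holding 50% of RNA reads and the spike-in ratio moved by less than the spread between cultures under each alternative run. None of the alternatives run for these quantities set the libraries to equal numbers of read steps. The difference in inserts without RNA, -3.63 percentage points, was -5.45 and -4.58 at equal numbers of read steps (first and second heap), which changed the count of silent inserts in both groups. The last 2 values count inserts under 0.5 steps, for which the difference before equal steps was -7.74 (first heap). The difference between the lowest and highest level group, 1.55, was 1.32 with 2 CPM added, 1.37 with unspliced reads, 1.32 and 1.73 with 5 and 20 groups, and 2.76 where the mean of siNT both sorted and served as baseline. The lowest group, 1.08, was then 0.859 (2 CPM), 2.03 (spike-in), 0.954 (unspliced) and 2.10 (mean of siNT). The highest group, -0.47, was 0.482 with spike-in scaling, -0.663 by the mean of siNT, and -0.314 and -0.593 with 5 and 20 groups. Of ranges, 57.6% apart and higher became 93.9% with spike-in scaling. The 3.03% apart and lower became 0.0% with spike-in scaling or unspliced reads, 4.55% and 5.88% in ranges of 250 and 1000, 12.1% from summed reads, and 3.03% to 9.09% with 1 culture left out (6.06% without siNT replicate 1, 9.09% without siNT replicate 3). The difference of inserts with a spliced form, -0.68, was -0.599 with 2 CPM added, -0.511 with unspliced reads, -0.532 from summed reads and -0.423 within groups of equal siNT level.

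The 50 calls of RNA over gDNA became 81 with library totals, 2200 with spike-in scaling, 1677 with DESeq2, 0 with limma (2828 at an unadjusted p under 0.05), 11 with unspliced reads, 25 with an RNA minimum of 5, 0 among inserts with at least 20 siNT RNA reads (2468 at an unadjusted p under 0.05), 485 with all 18 libraries, 628 with RNA reads divided by the read step, and 0 to 131 with 1 culture left out. RNA reads alone gave 42 calls, 8 of them among the 50; the cause was not tested. gDNA calls were 0, or 1 with DESeq2. The labels do not say that a number marks a shared batch, and culture numbers did not pair siNT with siWDR82 cultures (r = 0.065, 0.002 and 0.064). With the replicate block over these numbers 0 inserts were called (1675 at an unadjusted p under 0.05), the lowest minus highest level group was 1.58, and 60.6% of ranges had 3 differences above 0; quantities per culture keep their means under this pairing. Depth limits the silent inserts: 1 read step stands for 53.4 to 83.9 reads in siNT, and the share without RNA in siNT ran from 25.7% in the fifth of inserts with the fewest gDNA reads to 0.0543% in that with the most.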
